A study of Homo sapiens with 4 samples.

Results

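The albumin family and the carrier proteins of blood plasma are read here through 10 genes of 35189 in the tables: ALB, AFP, AFM, GC, TTR, RBP4, HP, HPX, ORM1 and ORM2. They were chosen by gene identifier, with no measured value in the rule, and their 141 annotated splice junctions were taken from the 350863 junctions listed for each cell line. The values are counts of ribosome footprints, the fragments of messenger RNA that a ribosome shields from nuclease, that span a splice junction. HepG2 cells, from a human liver tumor and with many traits of hepatocytes, were compared with K562 cells, from a chronic myelogenous leukemia and with erythroid traits. No treatment or engineered allele is named for either line. Cells of both lines were lysed with cycloheximide, which holds elongating ribosomes in place, and the fragments were freed of ribosomal RNA. Both lines have 2 samples in the labels, which name the same table for the pair, so there is 1 pooled table per line, no replicate error and no test across samples. Intervals given below are exact at the 95% level and hold counting error alone. Footprints carry no molecular identifiers and reads may be copies of 1 molecule, so the intervals may be too narrow.

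Hepatocytes secrete these proteins into the blood. ALB encodes albumin, the main carrier of fatty acids and many drugs, and AFP encodes alpha-fetoprotein, its fetal counterpart, which is often made again by liver tumors. AFM (afamin, a vitamin E binding protein) and GC (the vitamin D binding protein) are the other members of the same family on chromosome 4. RBP4 carries retinol and travels in plasma bound to transthyretin, the product of TTR. HP (haptoglobin) and HPX (hemopexin) capture free hemoglobin and heme, and ORM1 and ORM2 encode the alpha-1-acid glycoproteins, which bind basic drugs.

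Uniquely mapped reads numbered 9927809 for HepG2 and 7487508 for K562. The labels were checked against markers. The 6 hepatocyte markers summed to 292770 HepG2 and 51 K562 reads, and the 7 erythroid markers to 11399 in K562 and 17 in HepG2, all 17 in EPOR, while RHAG, GYPB, GATA1, TAL1 and KLF1 were at 0 in HepG2. Of the stromal markers, VIM had 22706 in K562 and 9 in HepG2, COL1A1 33 and 1, COL1A2 210 and 0, and COL3A1 4 and 0. Of the endothelial markers, PECAM1 had 2 in K562 and 39 in HepG2, CDH5 0 and 13, and KDR 3 and 0. Of the white cell markers, LYZ, a myeloid marker, had 333 in K562 and 25682 in HepG2, CD68 26 and 23, and CD3E 11 and 0. DCN and CD163 were at 0 in both tables.

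On GRCh38, ALB (chr4:73397114-73421412), AFP (chr4:73431138-73456174) and AFM (chr4:73481683-73504001) lie in a row on the plus strand, and GC (chr4:71741693-71804041) lies on the minus strand of the same chromosome. TTR is at chr18:31557010-31599021, RBP4 at chr10:93591687-93601744 and HPX at chr11:6431049-6442617. ORM1 (chr9:114323056-114326475) and ORM2 (chr9:114329869-114333252) are neighbours, as are HP (chr16:72054592-72061055) and its paralog HPR (chr16:72063148-72077246).

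Whether a read can be placed uniquely depends on the bases it covers, so windows at selected junctions are shown first. Each is the 30 coding bases, 15 on each side of the joint, of the main transcript in GENCODE release 29 (GRCh38), written in transcript direction. For ALB and AFP the windows with the most and the fewest HepG2 reads are shown, and capitals mark the bases that meet at the joint. Intron 9 was the most-read position in both genes.
ALB intron 9 (chr4:73415168-73416255): tgctatgccaaagtGTtcgatgaatttaaa
ALB intron 3 (chr4:73406762-73408593): tgtgacaaatcactTCataccctttttgga
AFP intron 9 (chr4:73449468-73450035): tgccaagataaaggAGaagaagaattacag
AFP intron 12 (chr4:73452625-73453764): aacaatgaagcaagAGtttctcattaacct

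ORM1 and ORM2 are close copies of each other, and their windows decide which reads can be given to 1 gene. Capitals mark the bases that differ between the genes. The windows at intron 1 were identical, those at intron 2 differed at 3 bases, and those at introns 4 and 5 at 1 base each.
ORM1 intron 1 (chr9:114323248-114323662): gccaccctggaccggatcactggcaagtgg
ORM2 intron 1 (chr9:114330019-114330433): gccaccctggaccggatcactggcaagtgg
ORM1 intron 2 (chr9:114323806-114324017): agagtaccagacccgAcagGaccagtgcAt
ORM2 intron 2 (chr9:114330577-114330791): agagtaccagacccgCcagAaccagtgcTt
ORM1 intron 5 (chr9:114325153-114326291): accgaTtggaaaaaggataagtgtgagcca
ORM2 intron 5 (chr9:114331930-114333068): accgaCtggaaaaaggataagtgtgagcca

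HP has a repeat inside the gene. Haptoglobin is known for a longer allele that arose by duplication of a pair of exons, and the annotated main transcript has that repeat. Capitals mark the bases that differ between the 2 windows of each pair. Introns 3 and 5 lie at matching places of the repeat and their windows differed at 1 base. Introns 2 and 4 enter the first and the second copy, and their windows were alike after the joint and differed at 10 bases before it.
HP intron 3 (chr16:72056632-72057391): gcacagaaggagatggagtAtacaccttaa
HP intron 5 (chr16:72058356-72059113): gcacagaaggagatggagtGtacaccttaa
HP intron 2 (chr16:72056244-72056529): TCACGGAtATCgcagatgacggctgcccga
HP intron 4 (chr16:72057467-72058253): CTGAATGtGAAgcagatgacggctgcccga

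Footprints of these genes made up 7.83% of the single-gene unique reads in HepG2 and 0.00292% in K562, 752435 and 211 reads. AFP and ALB held 95.7% of the HepG2 reads of the 10 genes and 96.2% of the K562 reads. AFP had 371360 HepG2 reads and 162 K562 reads, and ALB had 349063 and 41. Among all genes with HepG2 reads AFP ranked 1 and ALB 2. RBP4 followed at rank 40, with 16288 HepG2 reads and 3 from K562.

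The acute phase glycoproteins were next and the heme and thyroid hormone carriers lower. ORM1 had 7214 HepG2 reads and 1 from K562, and ORM2 had 5661 and 2. TTR had 1005 HepG2 reads, HP 995 and HPX 837, and none of these had a unique read in K562. HP is placed here by unique reads, 16.7% of its 5975 mapped HepG2 reads. The other family members on chromosome 4 were close to 0 in both lines: AFM had 5 HepG2 reads and 2 from K562, and GC had 7 and 0. Both proteins are liver products in the body, and both genes had too few reads to be compared here.

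**Figure D1:**
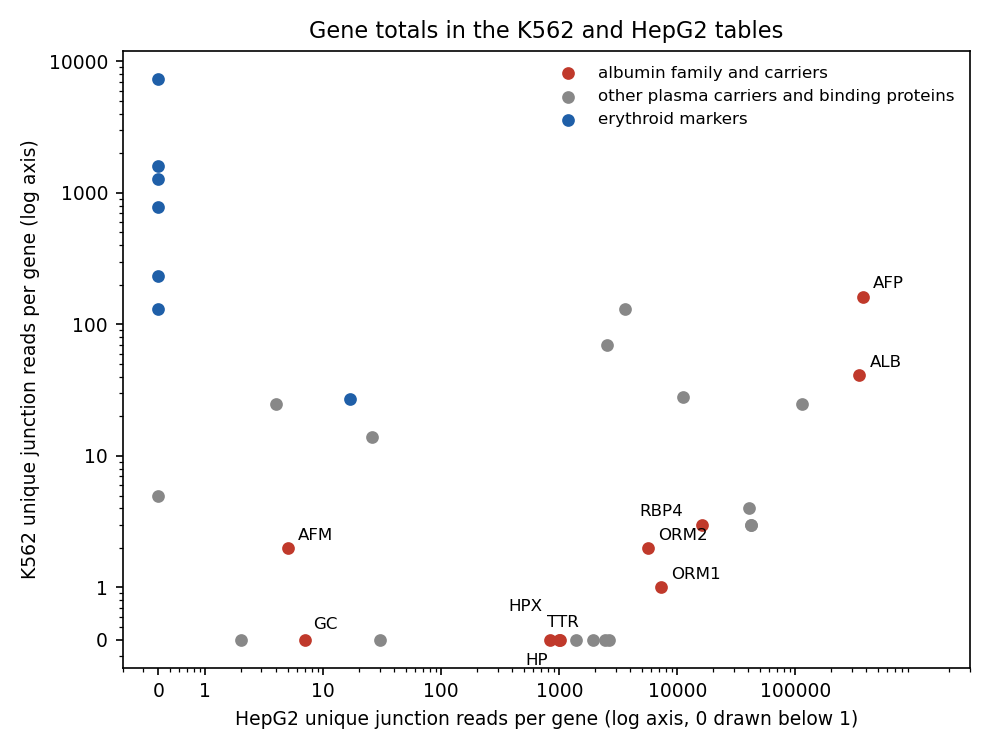
Unique junction reads per gene in HepG2 (horizontal) and K562 (vertical), both on log axes with 0 drawn below 1, for the 10 genes (red), other plasma carriers (grey) and erythroid markers (blue). AFP and ALB sit at the far right with 162 and 41 reads in K562, and AFM and GC lie at the left with 5 and 7 reads in HepG2.

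Scaled for depth, 8 of the 10 genes could be compared, those with 20 or more reads over both tables, and 8 were higher in HepG2 by the 2-fold rule, in which the whole interval of the ratio must lie past 2-fold. Over all 10956 genes tested, 21.9% were higher in HepG2 by the same rule. Apart from ALB and AFP, these genes passed the read minimum through HepG2 alone, so their count is a description. ALB was higher in HepG2 by 8553-fold (6305 to 11919) and AFP by 2303-fold (1974 to 2703). These intervals did not overlap, so ALB differed more between the lines than AFP beyond counting error.

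The fold was 5455 (1866 to 26453) for RBP4, 7248 (1300.4 to 286306) for ORM1 and 2844 (787 to 23487) for ORM2. These intervals overlapped each other, since each rests on 1 to 3 reads in K562. With a floor of 3 counts in place of 0 in K562, TTR was 337-fold, HP 333-fold and HPX 280.3-fold higher in HepG2. The exact lower limits, from the observed 0, were 273, 270.5 and 227. On the log2 scale of K562 over HepG2, the 8 genes had a median of -11.32, with the floor in place of 0, and all tested genes a median of -0.01. With scaling by total reads the 2 medians were -10.90 and 0.41, and 1925 genes were then higher in HepG2 and 2656 in K562, against 2402 and 1836 with TMM.

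Per coding junction, a measure that does not grow with the number of exons, ALB and AFP again had the highest values. ALB had a median of 26485 HepG2 reads over its 13 coding junctions, from 3281 to 55282. AFP had a median of 17266 over 13 coding junctions, from 5180 to 100702. By this median ALB ranked 1 and AFP 2 among 17526 genes with coding junctions, and their ranges overlapped widely. Their order rests on the choice of the median: the mean per coding junction was 28524 for AFP and 26839.7 for ALB, the order of their total reads.

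RBP4 had a median of 3960.5 HepG2 reads over 4 coding junctions (3129 to 4927), each below the lowest coding junction of AFP and in the range of the lowest of ALB. ORM1 followed at 927 (0 to 5007), ORM2 at 474 (0 to 3731) and TTR at 345 (190 to 470). HP had a median of 116.5 (0 to 386) and HPX of 40 (15 to 504), and AFM and GC had medians of 0, with no more than 2 and 3 reads at any coding junction. The ranges of the neighbours RBP4 and ORM1, ORM1 and ORM2, ORM2 and TTR, TTR and HP, and HP and HPX overlapped. With all mapped reads the median of HP became 904 and that of ORM2 845, both above TTR, so the places of HP and ORM2 in this order rest on how shared reads are treated.

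**Figure D2:**
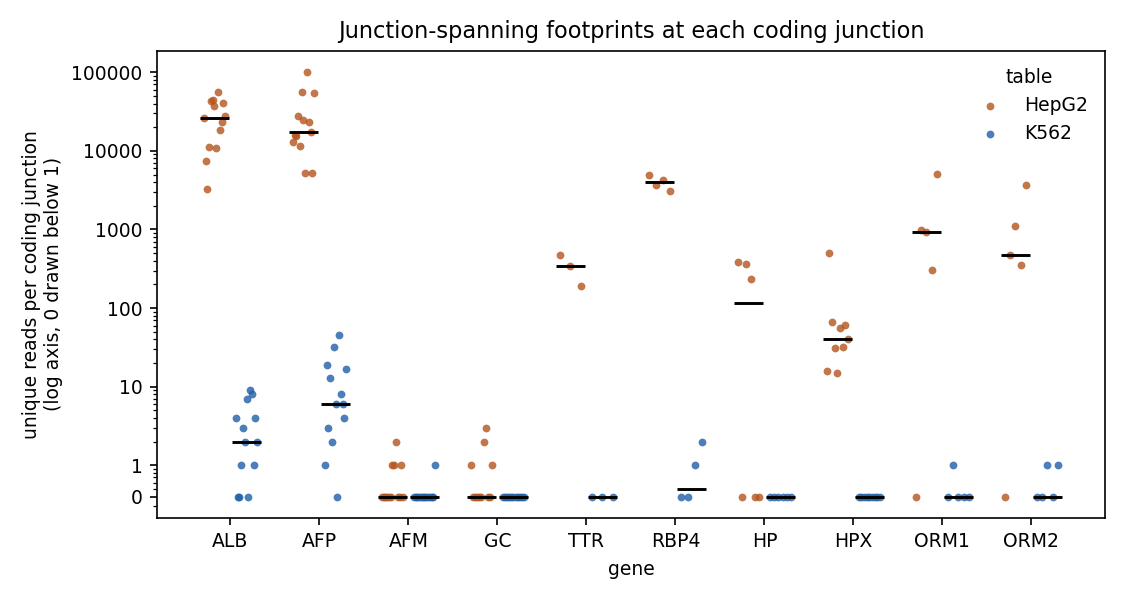
Unique reads at each coding junction of the 10 genes (1 point per junction, log axis, 0 drawn below 1) in HepG2 (orange) and K562 (blue), with the median as a black bar. ALB and AFP lie highest in both tables, RBP4 is the most even gene, and AFM and GC lie at or near 0 in both.

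The reads were spread unevenly along ALB and AFP, and the 2 genes shared some peaks and not others. Each main transcript has 14 introns, and 11 of 13 internal exons have the same length in both genes, so introns were compared by number. Introns 1 to 13 of ALB had 26485, 7341, 3281, 11031, 43211, 44168, 36904, 10937, 55282, 18445, 22958, 40855 and 28018 HepG2 reads in order. Those of AFP had 12949, 16007, 15628, 27702, 11572, 56458, 24347, 5283, 100702, 23087, 17266, 5180 and 54625. At intron 9, ALB had 55282 reads, 15.8% of its reads, and AFP had 100702, 27.1%. Both genes were also high at intron 6 (44168 and 56458 reads) and low at intron 8 (10937 and 5283).

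Other positions differed between the paralogs. Intron 5 had 43211 reads in ALB and 11572 in AFP, and intron 12 had 40855 in ALB and 5180 in AFP, the lowest coding value of that gene. Intron 3 was the lowest of ALB, with 3281 reads, and had 15628 in AFP. Over the 13 coding introns the log2 reads of the 2 genes had a Pearson correlation of 0.31 (Spearman 0.34), a description of introns that share libraries and ancestry. The share of G and C in the window was 33.3% at the most-read and 36.7% at the least-read ALB junction shown above. For AFP these were 36.7% and 33.3%. Over the 13 coding introns, the correlation of GC share with log2 reads was 0.43 in ALB and 0.10 in AFP.

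Reads fell past the stop codon in both genes. Intron 13 lies 42 coding bases before the end of either coding sequence and had 28018 reads in ALB and 54625 in AFP. Intron 14 lies in the 3′ untranslated region and had 91 and 539. The 91 reads of ALB were 44.6% of the 204 mapped there, so that junction is less certain than the coding ones.

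**Figure D3:**
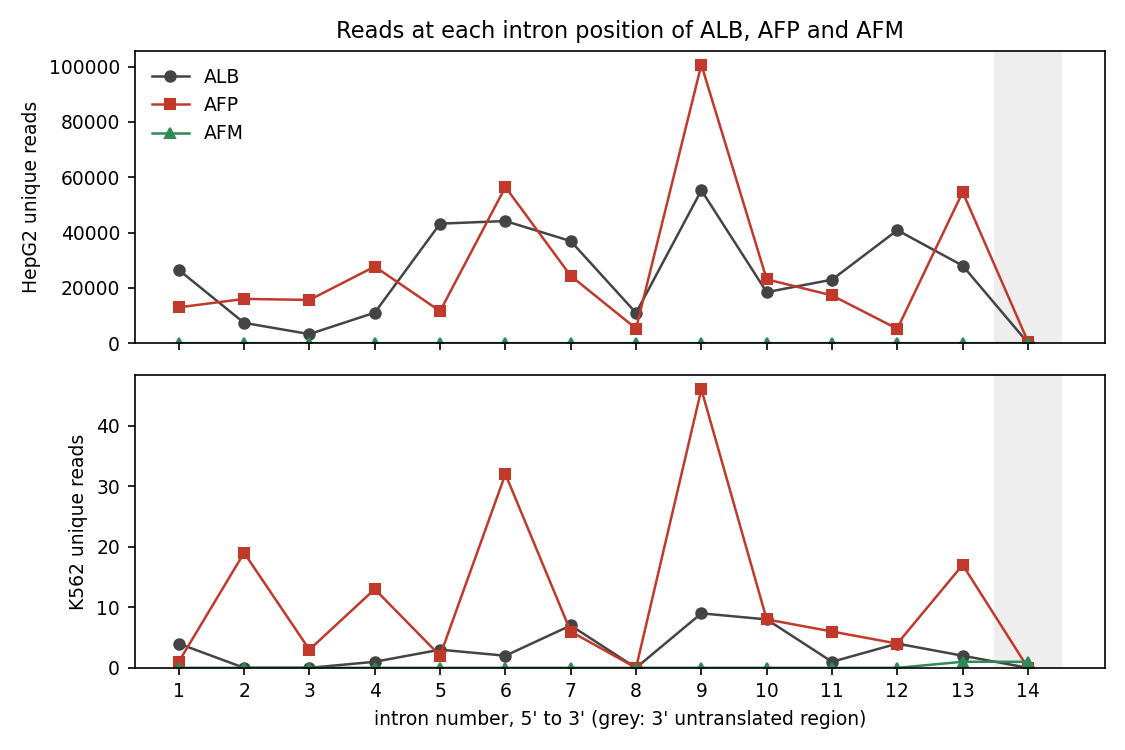
Unique reads at introns 1 to 14 of ALB (black), AFP (red) and AFM (green) in HepG2 (top) and K562 (bottom), on linear axes that differ between panels, with the intron in the 3′ untranslated region in grey. Intron 9 is the highest point of ALB and AFP in both tables, at 55282 and 100702 reads in HepG2 and 9 and 46 in K562.

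The few K562 reads of ALB and AFP lay along the coding sequence and not at a single junction. K562 reads were seen at 12 of the 13 coding junctions of AFP and 10 of the 13 of ALB. In order, introns 1 to 13 of AFP had 1, 19, 3, 13, 2, 32, 6, 0, 46, 8, 6, 4 and 17 reads, and those of ALB 4, 0, 0, 1, 3, 2, 7, 0, 9, 8, 1, 4 and 2. Intron 9 was again the most read, with 46 of 162 AFP reads (28.4%, 21.6 to 36.0%) and 9 of 41 ALB reads (22.0%, 10.6 to 37.6%). These intervals hold the HepG2 shares of 27.1% and 15.8%. The HepG2 share lay inside the K562 interval at 11 of 13 coding junctions of AFP and 12 of 13 of ALB. With so few K562 reads these intervals are wide, 0 to 8.60% at an ALB junction with 0 reads. Most of them could hardly miss the HepG2 share, so the counts say little about likeness. Over these junctions the log2 reads of the 2 tables had a Pearson correlation of 0.85 in AFP and 0.77 in ALB, as a description.

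The exceptions in AFP were at its 5′ end. Intron 2 took 19 of 162 reads in K562, 11.7% (7.21 to 17.7%), against 4.31% (4.25 to 4.38%) in HepG2. Intron 1 took 0.617% (0.0156 to 3.39%) in K562, from 1 read, and 3.49% (3.43 to 3.55%) in HepG2. In ALB the exception was intron 10, with 8 of 41 reads, 19.5% (8.82 to 34.9%), against 5.28% (5.21 to 5.36%) in HepG2.

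AFP reads in K562 also used an upstream exon that was not read in HepG2. A junction from an annotated noncoding transcript of AFP (chr4:73434611-73437159) joins an exon before the main first exon to exon 2. It had 5 reads in K562 and 0 in HepG2. Of the K562 reads that entered exon 2, 5 of 6 came from it (83.3%, 35.9 to 99.6%). In HepG2 it took 0 of 12950 reads at the same acceptor, which allows a share of up to 0.0232%, and the main junction took 12949. The shares of the lines differ at this site beyond counting error, on 6 K562 reads, and the junction was singled out after its values were seen.

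**Figure D4:**
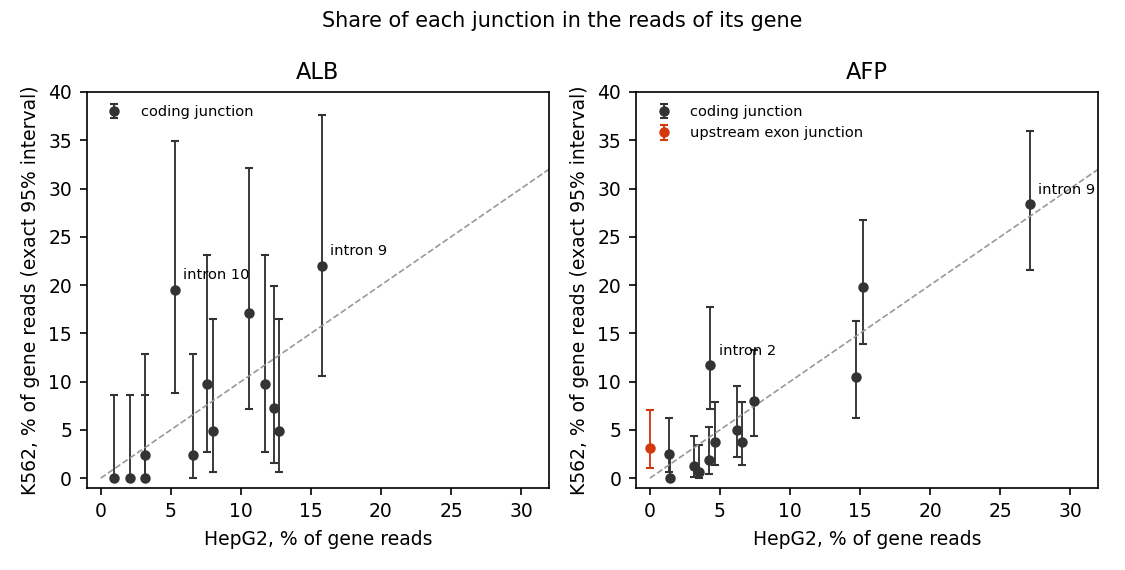
Share of each junction in the unique reads of ALB (left) and AFP (right), HepG2 on the horizontal and K562 on the vertical axis, with exact 95% intervals of the K562 share and a dashed line of equal shares. AFP intron 2, at 11.7% in K562 and 4.31% in HepG2, and the upstream exon junction (red), at 3.09% and 0%, lie above the line.

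The K562 trace was not the same fraction of the HepG2 level in every gene. For every 1000000 HepG2 reads, AFP had 436 (372 to 509) reads in K562 and ALB had 117 (84.3 to 159), and these intervals did not overlap. AFP therefore made up 79.8% (73.6 to 85.1%) of the AFP and ALB reads in K562 and 51.5% (51.4 to 51.7%) in HepG2. RBP4 had 184 (38.0 to 538), ORM1 139 (3.51 to 773) and ORM2 353 (42.8 to 1277) on this scale, and their intervals overlapped those of both. For TTR, HP and HPX, HepG2 counts lay between 837 and 1005. On this scale, 0 reads in K562 allow up to 3677, 3714 and 4417 by the exact interval. A trace of the size seen in ALB or AFP was thus not detectable at this depth.

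Hepatocyte markers with K562 reads had intervals that overlapped that of ALB, and values below that of AFP. For every 1000000 HepG2 reads, SERPINA1 had 109 (43.9 to 225) in K562, APOA2 232 (116 to 416), FGB 209.7 (68.1 to 489), TF 220.0 (142 to 325) and APOH 70.9 (14.6 to 207). The interval of AFP overlapped those of APOA2 and FGB and lay above those of SERPINA1, TF and APOH. Genes of the lists below lay on both sides of AFP, such as AHSG at 71.2 and AMBP at 98.8, and ASGR1 at 5600.0 and APOM at 27624. HNF4A had 1545 HepG2 reads and 0 in K562, which allows up to 2390.5 on this scale by the exact interval. In the other direction, for every 1000000 K562 reads, VIM had 396 in HepG2, from 9 reads. The erythroid marker RHAG had 0 beside 7365 K562 reads, or 407 at 3 counts. A trace of the size seen in ALB was thus not detectable in RHAG or HNF4A. Whether material passed between libraries had a part in the K562 reads was not tested.

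RBP4 was the most even of the genes along its length. Its coding introns 2 to 5 had 4927, 3644, 4277 and 3129 HepG2 reads, a highest to lowest ratio of 1.57, against 16.8 in ALB and 19.4 in AFP. Intron 1, in the 5′ untranslated region, had 308 reads, 1.89% of the gene. Its 3 reads in K562 lay at introns 4 and 5. TTR had 470, 345 and 190 HepG2 reads at introns 1 to 3. The last is 91.8% of 207 mapped reads, so the values of TTR rest little on multi-mapped reads.

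Most HPX reads lay at 1 junction, and a few skipped exons. Intron 2, 142 coding bases after the start, had 504 of 837 HepG2 reads (60.2%, 56.8 to 63.5%), while the other 8 coding introns had between 15 and 67. A junction annotated in a noncoding transcript leads from the donor of intron 3 to the acceptor of intron 7 (chr11:6432018-6440466) and passes over the exons between them. It took 14 of 81 reads at that donor (17.3%, 9.78 to 27.3%) and 14 of 46 at that acceptor (30.4%, 17.7 to 45.8%). K562 had no HPX reads, so no comparison of this choice between the lines is possible.

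ORM1 and ORM2 shared a steep profile in HepG2. Intron 5, 63 coding bases before the end, held 5007 of 7214 unique reads of ORM1 (69.4%, 68.3 to 70.5%) and 3731 of 5661 of ORM2 (65.9%, 64.7 to 67.1%). The other read introns of ORM1 had 977, 927 and 303 reads, and those of ORM2 474, 1098 and 358. Intron 2 was higher in ORM1 and intron 3 in ORM2, each by unique reads that made up at least 99.6% of those mapped. Over the whole gene ORM1 held 56.0% (55.2 to 56.9%) of the unique reads of the pair in HepG2.

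The unique share was lowest where the windows of both genes were alike. At intron 1, with identical windows, 0 of 849 mapped reads of ORM1 and 0 of 845 of ORM2 were unique. At intron 4, with 1 differing base, 65.9% and 69.5% were unique. At intron 5, also with 1 differing base, the shares were 84.8% and 80.8%. At introns 2 and 3, with 3 and 4 differing bases, they were between 99.6% and 100.0%. In all, 79.1% of ORM1 reads and 75.0% of ORM2 reads were unique, against 98.5% for ALB and 98.3% for AFP.

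Most reads mapped to HP were not unique. Of 5975 mapped HepG2 reads, 995 (16.7%) were unique. At introns 2, 5 and 6, 1986, 1021 and 845 reads were mapped and 0 were unique. The window of intron 2 is also that of an annotated junction from the same donor into the second copy of the repeat (chr16:72056244-72058253), to which 1 read was given. The window of intron 5 is also that of another annotated HP junction (chr16:72056632-72059113). That of intron 6 occurs in HPR and at another annotated HP junction (chr16:72057467-72060111). The window of intron 3, where 365 of 963 reads (37.9%) were unique, occurs in HPR too. The HPR junction with the window of HP intron 6, HPR intron 4, had 0 mapped reads. How reads that map to more than 1 place were counted is not given in the sources used here. Mapped reads at introns 3 and 6 of HP may thus include reads of HPR.

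Introns 1 and 4 of HP were nearly free of shared reads. Intron 4, the joint between the copies, had 233 unique of 235 mapped reads, and intron 1 had 386 of 396. HepG2 therefore held HP footprints across the joint between the 2 copies, as in the annotated transcript. In K562 HP had 1 mapped read, at intron 2, which was not unique. The paralog HPR had 546 unique of 995 mapped reads in HepG2 and 0 in K562. With 3 counts in place of 0, HPR was 183-fold higher in HepG2, with an exact lower limit of 148. Its introns 1 to 3 had 332, 148 and 66 unique reads. Of the 82 coding junctions of the 10 genes, 4 had a window that occurs in another gene, 2 of them in ORM1 and ORM2 and 2 in HP.

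**Figure D5:**
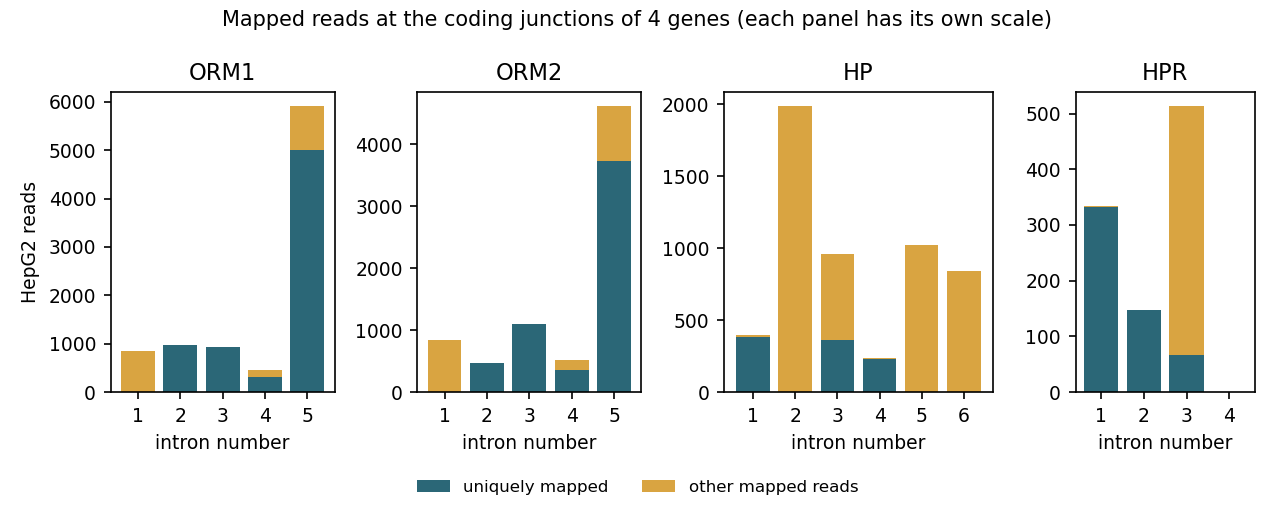
HepG2 reads mapped at the coding junctions of ORM1, ORM2, HP and HPR, split into uniquely mapped (dark teal) and other mapped reads (yellow), with a separate linear scale in each panel. Intron 1 of ORM1 and ORM2 and introns 2, 5 and 6 of HP have no unique reads, and intron 5 is the highest of both ORM genes.

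Short stretches upstream of gene starts were read from the RefSeq promoter table (GRCh38.p14). It held entries for 6 of the 10 genes, ALB, AFP, AFM, RBP4, HPX and ORM1. Its starts can differ from the gene coordinates above, and the ALB and AFP stretches shown lie inside those coordinates. GTTAAT, letters known from promoters of liver genes, was searched on both strands in the 250 bases before and 50 after each start. It was found in ALB, AFP and AFM, and in 6.88% of all 35116 promoters of that length. The stretches are shown because the genes of the albumin cluster share the letters while their reads range from 371360 to 5 in HepG2. Capitals mark the motif.
ALB (chr4:73404214-73404243): aagatgagtctaGTTAATaatctacaatta
AFP (chr4:73436077-73436106): aaccgctatgctGTTAATtattggcaaatg
AFM (chr4:73481596-73481625): tttttttttctgGTTAATatttagcaagaa
The TATAAA box was found in AFP, AFM, RBP4 and ORM1 and in 11.5% of all promoters. The forkhead letters TGTTTAC and the HNF4 letters CAAAGTCCA were found in none of the 6, and in 3.42% and 0.384% of all promoters. A match describes these letters only.

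Of 16 other carriers of plasma, 14 could be compared, 12 were higher in HepG2, against 21.9% of all genes tested, 1 was higher in K562 and LRG1, at 1.87-fold (0.939 to 3.87), was not called. Of the 12 genes, 8 had fewer than 20 reads in K562 and passed the read minimum through HepG2 alone, so the count is a description, as are those of the lists that follow. The median of the 14 on the log2 scale of K562 over HepG2 was -9.09. TF, the iron carrier transferrin, had 113638 HepG2 reads and 25 from K562. AHSG (fetuin-A) had 42114 and 3 and APOH 42313 and 3. TCN2, a cobalamin carrier, went the other way, at 25 K562 and 4 HepG2 reads, 6.22-fold higher in K562 (2.15 to 24.6), as were 16.8% of all genes tested; with 99% intervals it was no longer past 2-fold. Lipocalins other than RBP4, ORM1 and ORM2 gave 3 of 4 compared genes higher in HepG2, and 2 of these 3 passed the read minimum through HepG2 alone. Among them were AMBP with 40496 and 4 reads, APOM with 2534 and 70, and C8G with 40 and 0.

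Of 11 genes of receptors that take up these carriers and of their recycling, 8 could be compared, at a median of -6.58. Of these 8, 6 were higher in HepG2, against 21.9% of all genes tested, and 2 were not called. Of the 6 genes, 4 passed the read minimum through HepG2 alone. The asialoglycoprotein receptor chains ASGR1 and ASGR2 had 5000 and 4989 HepG2 reads against 28 and 0 from K562. TFRC, the transferrin receptor, had 11898 and 10273, within the 2-fold limit at 1.16-fold (1.13 to 1.19), and its direction turned with the scaling, from -0.22 on the log2 scale of K562 over HepG2 to 0.20 with total reads.

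Transcription factors known to act on these promoters had few junction reads. Of 13, 5 could be compared and 5 were higher in HepG2 (median -5.40), against 21.9% of all genes tested. All 5 passed the read minimum through HepG2 alone. Among them were HNF4A with 1545 HepG2 reads and none from K562 and ZFHX3 with 63 and 1. CEBPA and CEBPB have no junction in the tables and could not be measured. Of 12 genes of the acute phase and of interleukin 6 signalling, 6 could be compared (median -4.00). Of these 6, 4 were higher in HepG2, again against 21.9% of all genes tested, and IL6R and STAT3 were not called. Of the 4 genes higher in HepG2, 3 passed the read minimum through HepG2 alone. IL6R, the interleukin 6 receptor, had 29 HepG2 and 7 K562 reads, or 4.16-fold with an interval of 1.78 to 11.3 that reached below 2-fold. SERPINA3, a protease inhibitor of the acute phase, had 2760 HepG2 reads and 0 from K562, and FGL1, a secreted liver protein, had 5550 and 1. STAT3, the factor activated by interleukin 6, had 4294 and 2822, or 1.53-fold (1.46 to 1.60).

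Among 86 other protein-coding genes with 10000 or more HepG2 reads, those with the log2 ratio nearest to the median of -11.32 were CPE, APOA1 and AGT. CPE, a carboxypeptidase, had 10436 HepG2 and 5 K562 reads, APOA1, the main protein of high-density lipoprotein, 10533 and 3, and AGT (angiotensinogen) 11732 and 0. The likeness rests on 1 ratio from 2 tables.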

How the data were processed

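Ribosome profiling libraries of K562 and HepG2 were deposited as 1 junction table per line. The authors deposited raw read counts for each annotated junction, with 1 column for every mapped read and 1 for unique reads, per the file headers. cutadapt, Bowtie2 and STAR 2.6.0 are named with GRCh38 in the submitters' processing notes. What each did and which annotation was used is not given in the sources used here. Junctions were matched to introns of GENCODE release 29 (99.7% matched), and 1 main transcript per gene was taken by APPRIS rank, CCDS tag and coding length. Gene totals are sums of unique reads at junctions that belong to a single gene. Genes that reached 20 reads, both lines added, were scaled by TMM (edgeR 4.0.16), and ratios were given exact 95% conditional binomial (Clopper-Pearson) intervals. An observed 0 was set to 3 counts in ratios. Named genes were the 10 genes, HPR, the 3 genes nearest to their median, and in each list the 3 genes with the most reads and any gene past 2-fold against the list median. Any other gene named is a marker or was named after its values were seen. Some genes of the lists are not reported here. Genes and lists were chosen with earlier results of these data known. No column holds a single sample. Alternatives were total-read scaling, size factors of DESeq2 1.42.0, minimums of 1 and 100 reads, all mapped reads, 99% intervals and other choices of junctions and windows.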

Additional observations from a re-analysis of the deposited data

How the results depend on the processing

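The count of 8 genes higher in HepG2 was 8 under each of the 10 alternatives that were run, and no log2 ratio of these genes changed its sign or its side of 2-fold. With all mapped reads, intron 9 took 15.6% of the ALB reads in HepG2 in place of 15.8%, and the log2 ratio of K562 to HepG2 of HP, -8.38 with unique reads, was -12.58. Without the most-read junction of each gene, this log2 ratio was -6.75 for HPX in place of -8.13, -7.44 for TTR in place of -8.39, -7.62 for HP, -11.85 for RBP4 in place of -12.41, -11.07 for ORM1 in place of -12.82 and -10.87 for ORM2 in place of -11.47. With a minimum of 1 read AFM and GC entered the comparison and passed neither limit. Windows of 20 bases gave the same number of coding junctions shared with another gene, 4. No paired analysis was possible because each table pools both samples of a line and no column carries a replicate number, and for the same reason no sample could be left out. With 3 or fewer reads in K562, single values of RBP4, ORM1 and ORM2 there are limited by depth.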

Other observations

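Some annotated junctions of these genes hold mapped reads that are almost never unique. In ALB a junction from the donor of intron 4 (chr4:73408806-73409072) had 2289 mapped reads in HepG2, of which 13 were unique, beside 13362 and 11031 at intron 4 itself. In HP a junction to an acceptor beyond that of intron 6 (chr16:72059189-72060662) had 515 mapped reads and 0 unique. In RBP4 a junction of another transcript (chr10:93600972-93601665) had 80 mapped reads and 1 unique. Only their unique reads are counted in the gene totals of unique reads above, while the totals of mapped reads hold all of them. No comparison above is of these junctions themselves. They were chosen after their values were seen.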
